A study of Mus musculus with 10 samples.

Results

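The genes of cholesterol and fatty acid synthesis were followed in mouse myotubes in which the long non-coding RNA Charme had been targeted. The set was chosen by name, as 33 symbols that stand for 31 distinct genes, and kept where the gene was listed with a mean of at least 1 FPKM, fragments counted for a gene relative to transcript length and library size. This left 30 of the 10993 genes that reached that mean, out of 11228 listed, and every listed member passed. Hmgcs1 is not analysed here. The 30 comprise 5 enzymes of the mevalonate and isoprenoid steps, 11 of the squalene and sterol steps, 5 genes of the SREBP system with a sterol carrier, and 9 of fatty acid synthesis, elongation and desaturation.

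Cells make cholesterol from acetyl-CoA by way of mevalonate, isoprenoids, squalene and lanosterol, and fatty acids from the same precursor through malonyl-CoA. Many of these enzymes are induced together by the SREBP transcription factors, which are held in the endoplasmic reticulum with the escort Scap and the retention protein Insig1 while sterols are abundant, and are released by proteolysis in the Golgi when sterols fall. In these promoters SREBPs are known to act with NF-Y, which binds the CCAAT box, and with Sp1, which binds GC boxes. In muscle the pathways supply membranes of growing and fusing fibres and the isoprenoids that anchor small GTPases.

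All libraries came from myotubes, the multinucleate cells that myoblasts form on fusion, after 2 days of differentiation in culture, and the labels name neither a strain nor a cell line. Polyadenylated RNA was sequenced from 3 groups of 2 libraries. The control was treated with GAP-scr, a scrambled gapmer, and the other groups with GAP-2 or with the set named GAP-2/3, where gapmers are antisense oligonucleotides that direct RNase H to their target, here Charme. The labels do not say whether GAP-2/3 also contains GAP-2, as its name allows, and both arms share the control libraries. A ChIRP-seq list of DNA sites recovered with Charme was deposited alongside.

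FPKM does not keep the number of reads, so depth is unknown. The libraries of a group are called A and B, as in the labels. Their median FPKM was 11.9 to 13.3, and A and B of a group had a correlation of 0.989 to 0.995 across genes, which are not independent replicates. Rn45s, the ribosomal RNA precursor, reached 3387 FPKM in library A of GAP-scr and 4090 in library A of GAP-2, while the other 4 libraries held 93.2 to 176. Charme itself is not analysed here, so the groups rest on their labels. All 12 skeletal muscle markers were listed, and their summed FPKM lay between 11247 and 12003 for GAP-scr, 6786 and 6997 for GAP-2, and 7506 and 7859 for GAP-2/3. Acta1 was the largest part, at 5636 and 6323, 2974 and 2834, and 2928 and 3215 FPKM. Limma called 9 of the 12 lower with GAP-2 and 7 with GAP-2/3, and 0 higher, where 4.18% and 11.3% of all genes were called lower. Myog overlapped between GAP-scr (982 and 846 FPKM) and GAP-2/3 (811 and 882). Of 12 adipocyte markers 3 were listed (Pparg, Cebpa and Lipe), summing to 4.59 to 4.60, 4.35 to 4.36 and 6.71 to 8.22 FPKM, while Adipoq, Plin1, Cidec and Fabp4 are not analysed here. Of 10 fibroblast markers 8 were listed, at 2178 to 2187, 1967 to 2282 and 1452 to 1682 FPKM. Limma called 3 of the 8 lower and 2 higher with GAP-2/3: Col1a1, a collagen with much of the sum, stood at 778 and 808 FPKM in the controls and 385 and 456 with GAP-2/3, whereas Dcn, a proteoglycan, stood at 52.6 and 37.2 against 123 and 128. Of the macrophage markers 2 of 9 were listed, at 3.12 to 4.04, 7.28 to 7.70 and 5.25 to 5.55 FPKM, and of the glial markers 3 of 8, at 15.8 to 17.1, 18.3 to 19.4 and 45.7 to 49.2, whereas the 8 hepatocyte and 8 endothelial markers are not analysed here. The glial sum differed mainly through S100b (1.18 and 2.33 FPKM in GAP-scr, 28.5 and 30.8 in GAP-2/3), as Cnp was at 13.7 to 17.0 and Mbp at 0.552 to 1.36 in the 6 libraries. The fibroblast sums of GAP-2 lay on both sides of those of GAP-scr. The part of these markers in the changes below was not tested, and in bulk RNA fewer cells of a type cannot be told apart from less RNA per cell.

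The promoters were searched for short sequences that these genes may have in common. RefSeq promoter windows of GRCm38.p6, running from 250 bases before to 50 after a gene's start, matched 23 of the 30 members with 29 windows. The NF-Y box CCAAT, searched on both strands, was found for 19 of the 23 (82.6%), against 43.4% of the 8829 tested genes with a window. It was in 20 of the 29 windows, against 37.4% of all 32851 windows. The GC box GGGCGG was found for 18 of the 23 (78.3%), near the 71.2% of the tested genes. It was in 21 of the 29 windows, against 35.7% of all windows. Those include genes not tested here, so the 71.2% is the closer comparison. The sterol regulatory element spelled TCACNCCAC and the E-box palindrome TCACGTGA were in none of the 29 windows. They were in 1.24% and 0.974% of all windows and found for 1.38% and 2.45% of the tested genes. With shares this low, none among 23 members is near the background. No match says only that these letters are absent from the window. Matches are a description of letters and not of binding. The bases -150 to -1 before the start, 5′ to 3′, are given for 6 members with 1 window each, chosen after their values were seen to show both genes that fell (Mvd, Lss, Mvk and Srebf2) and genes that rose with GAP-2/3 (Cyp51 and Ebp). Capitals mark CCAAT or its reverse complement.

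Mvd (chr8:122443423-122443572, minus strand): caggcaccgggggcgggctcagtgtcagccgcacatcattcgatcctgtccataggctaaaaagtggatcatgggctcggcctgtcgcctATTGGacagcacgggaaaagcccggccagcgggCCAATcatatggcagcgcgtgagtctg
Lss (chr10:76531455-76531604, plus strand): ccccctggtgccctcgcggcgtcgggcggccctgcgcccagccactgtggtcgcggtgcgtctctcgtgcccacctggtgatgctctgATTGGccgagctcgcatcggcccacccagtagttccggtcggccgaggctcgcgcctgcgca
Mvk (chr5:114444119-114444268, plus strand): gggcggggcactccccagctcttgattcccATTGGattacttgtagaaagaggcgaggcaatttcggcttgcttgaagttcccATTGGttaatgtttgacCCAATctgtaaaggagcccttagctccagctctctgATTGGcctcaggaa
Srebf2 (chr15:82147119-82147268, plus strand): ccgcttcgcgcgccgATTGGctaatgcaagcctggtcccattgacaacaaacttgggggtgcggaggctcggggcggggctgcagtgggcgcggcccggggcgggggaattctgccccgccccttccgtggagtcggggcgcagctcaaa
Cyp51 (chr5:4104698-4104847, minus strand): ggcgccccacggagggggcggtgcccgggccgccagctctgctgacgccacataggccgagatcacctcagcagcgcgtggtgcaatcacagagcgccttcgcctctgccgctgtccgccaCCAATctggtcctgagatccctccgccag
Ebp (chrX:8193513-8193662, minus strand): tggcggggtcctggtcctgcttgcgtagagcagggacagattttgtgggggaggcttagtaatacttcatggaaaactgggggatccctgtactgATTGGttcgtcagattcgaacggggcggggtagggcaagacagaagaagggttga

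The boxes are not limited to the genes that fell: Mvk carries 4 in this stretch and Mvd 2, and Lss, Srebf2, Cyp51 and Ebp carry 1 each. Of the members with a window, Scap, Acaca, Elovl6 and Fads2 had none.

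**Figure D1:**
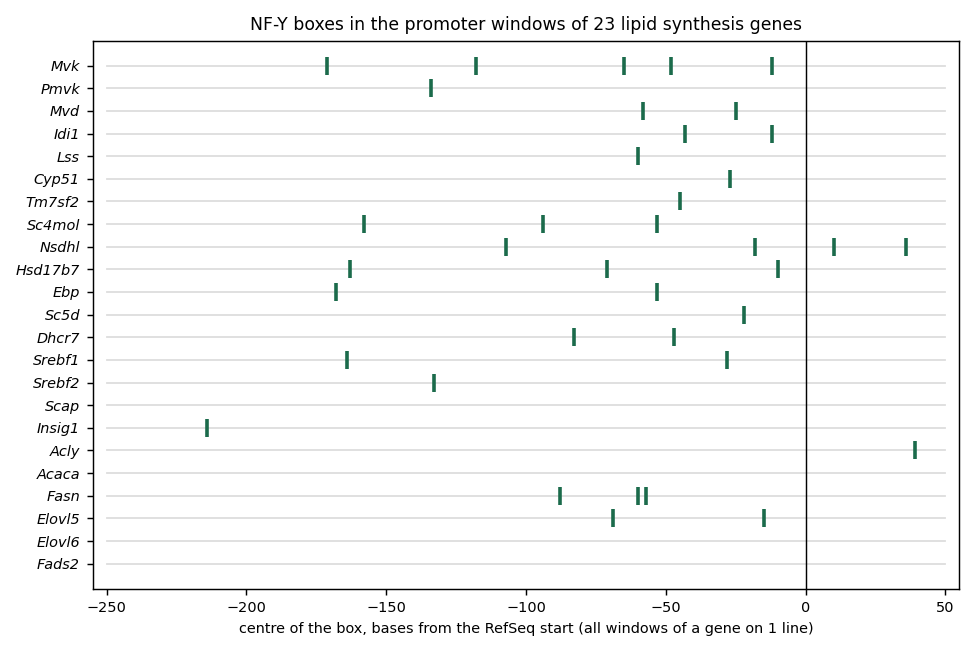
NF-Y boxes (CCAAT or its complement) in the promoter windows of 23 lipid synthesis genes, by distance in bases from the RefSeq start, with every window of a gene drawn on 1 line. Mvk has 5 boxes, most boxes lie before the start, and Scap, Acaca, Elovl6 and Fads2 have none.

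Changes were tested with limma on log2(FPKM + 1), with p-values adjusted by Benjamini-Hochberg over all 10993 genes and a threshold of 0.05; changes and their SE are on that scale. Against GAP-scr, 13 of the 30 genes fell and 2 rose with GAP-2/3, where 11.3% of all genes were called lower and 28% higher. With GAP-2 2 fell and 1 rose, where 4.18% of all genes were called lower and 10.4% higher, so its count of lower genes lies near the background. The members' median change was -0.26 with GAP-2/3 and -0.05 with GAP-2, while the median of all genes was 0.13 and 0.07, which leaves -0.39 and -0.12 relative to all genes. Scaling every library to the same median, which removes most of that shift, gave GAP-2/3 17 lower and 0 higher (16.3% and 17.5% of all genes) and GAP-2 4 lower and 1 higher (5.89% and 6.44%).

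The level summed over the whole set was lowest with GAP-2/3. The 30 genes summed to 2890 and 2666 FPKM in GAP-scr, 2643 and 2806 in GAP-2, and 2272 and 2449 in GAP-2/3. The GAP-2/3 libraries lay below the other 4 libraries, which overlapped each other. The sums of the 11 squalene and sterol genes overlapped between all groups. They were 634 and 608 FPKM in GAP-scr, 600 and 666 in GAP-2, and 625 and 598 in GAP-2/3. Both GAP-2/3 libraries lay below both GAP-scr libraries for 20 of the 30 genes, where this held for 22.3% of all genes, and above both for 4, against 46.7%. For GAP-2 the counts were 9 below and 6 above, against 22.4% and 39.8%. Scd2 had the highest mean of the 30 over the 6 libraries, at 739 FPKM, and Elovl6 the lowest, at 7.47.

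**Figure D2:**
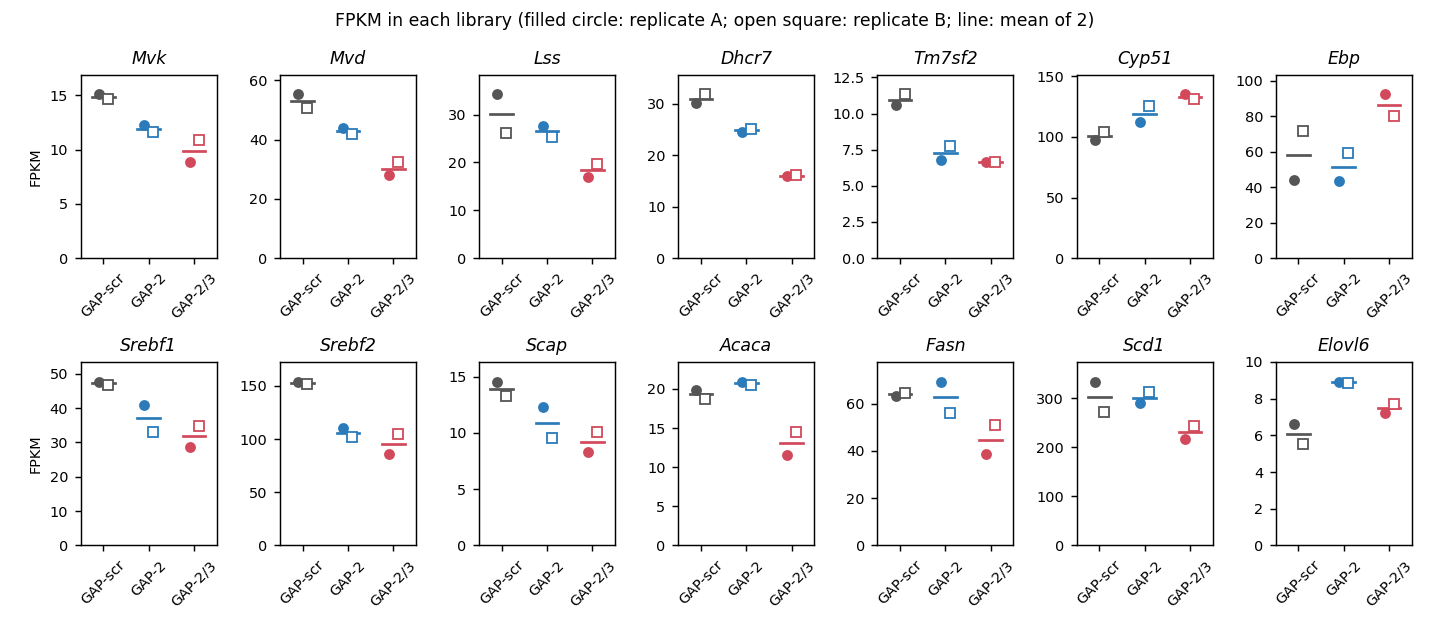
FPKM of 14 lipid synthesis genes in each of the 6 RNA-seq libraries, by group, with the mean of each pair as a line. Dhcr7, Mvd, Mvk and Tm7sf2 step down from GAP-scr through GAP-2 to GAP-2/3, Acaca is low in GAP-2/3 alone, and Cyp51 steps up.

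The mevalonate steps convert mevalonate to the isoprenoids that are joined into farnesyl pyrophosphate. Of the 5 genes GAP-2/3 lowered 3, Mvd, Mvk and Pmvk. Mvd, the decarboxylase that yields isopentenyl pyrophosphate, stood at 55.4 and 50.6 FPKM in GAP-scr, 43.9 and 41.9 in GAP-2, and 28.0 and 32.5 in GAP-2/3. The 3 groups did not overlap. Mvd fell by 0.79 ± 0.11 (SE, n = 2 per group) with GAP-2/3 (adjusted p = 0.000505, limma), and its change with GAP-2 was -0.30 ± 0.11 (adjusted p = 0.0995). Mvk, mevalonate kinase, was listed at 15.1 and 14.7 FPKM in GAP-scr, 12.2 and 11.6 in GAP-2, and 8.84 and 10.9 in GAP-2/3. Again no group overlapped another, and the change with GAP-2/3 was -0.55 ± 0.12 (adjusted p = 0.00565), with -0.30 ± 0.12 in GAP-2 (adjusted p = 0.124). The call for Mvk was lost without GAP-2/3 A, at -0.42. Pmvk, phosphomevalonate kinase, fell by 0.32 ± 0.12 with an adjusted p of 0.0496 (limma). Its call was lost when any 1 library but GAP-scr B was left out. The change was -0.20 without GAP-scr A, -0.26 without GAP-2/3 A, -0.38 without GAP-2/3 B and -0.32 without either GAP-2 library. The call was also lost with a pseudocount of 0.1, at -0.33, and without an intensity trend or with a replicate block, at -0.32 each. Idi1, the isomerase, and Fdps, farnesyl pyrophosphate synthase, did not pass: Idi1 changed by 0.05 (95% interval -0.32 to 0.42), with 124 and 79.7 FPKM in the GAP-scr libraries themselves, and Fdps by -0.18 (-0.43 to 0.07).

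The squalene and sterol steps moved in both directions. Of these 11 genes GAP-2/3 lowered Dhcr7, Lss and Tm7sf2 and raised Cyp51 and Ebp, and the other 6 did not pass. Dhcr7, the reductase that makes cholesterol from 7-dehydrocholesterol, had the largest fall of the 30. It stood at 30.1 and 31.8 FPKM in GAP-scr, 24.6 and 25.1 in GAP-2, and 15.9 and 16.1 in GAP-2/3. The replicates of each group lay closer to each other than to any other group, and the GAP-2/3 mean was 51.7% of the GAP-scr mean. The change was -0.91 ± 0.11 with GAP-2/3 (adjusted p = 0.000129, limma) and -0.31 ± 0.11 with GAP-2 (adjusted p = 0.0721).

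Tm7sf2, a sterol C14 reductase, was lower in both arms. Its levels were 10.6 and 11.3 FPKM in GAP-scr, 6.81 and 7.75 in GAP-2, and 6.62 and 6.63 in GAP-2/3. Neither arm overlapped GAP-scr, and the changes were -0.53 ± 0.12 with GAP-2 (adjusted p = 0.0138) and -0.65 ± 0.12 with GAP-2/3 (adjusted p = 0.00194). With GAP-2 the call was lost without GAP-2 A, at -0.45, without GAP-2 B, at -0.61, and without both libraries highest in Rn45s, at -0.50. Lss, which cyclizes squalene epoxide to lanosterol, was at 34.3 and 26.1 FPKM in GAP-scr, 27.7 and 25.4 in GAP-2, and 17.0 and 19.7 in GAP-2/3. GAP-2 overlapped GAP-scr for this gene and GAP-2/3 did not. Lss fell by 0.68 ± 0.14 with GAP-2/3 (adjusted p = 0.00347), a call lost without GAP-2/3 A, at -0.58, and changed by -0.17 ± 0.14 with GAP-2 (adjusted p = 0.427).

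Cyp51, the lanosterol demethylase whose product Tm7sf2 reduces, went the other way. It was listed at 97.5 and 104 FPKM in GAP-scr, 112 and 125 in GAP-2, and 135 and 131 in GAP-2/3, with no overlap between groups. The change was 0.40 ± 0.11 with GAP-2/3 (adjusted p = 0.0121) and 0.24 ± 0.11 with GAP-2 (adjusted p = 0.151). Under median scaling it was 0.29 and did not pass, and without GAP-2/3 A it was 0.38 and did not pass, nor did it pass at 0.36 without both libraries highest in Rn45s. Ebp, the sterol isomerase, was at 44.2 and 71.8 FPKM in GAP-scr, 43.7 and 59.4 in GAP-2, and 92.4 and 80.1 in GAP-2/3. Both GAP-2/3 libraries lay above the other 4, and the controls were far apart. Ebp rose by 0.60 ± 0.20 with GAP-2/3 (adjusted p = 0.0336), but did not pass under either scaling (0.49 by median and 0.51 by quantile normalization). Leaving out GAP-scr A (0.26), GAP-2/3 A (0.50) or GAP-2/3 B (0.70) also ended its call.

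The remaining sterol enzymes lay between -0.39 and 0.11 with GAP-2/3. Hsd17b7, a 3-ketosteroid reductase, was lowest of these at -0.39 ± 0.16 (adjusted p = 0.070), with controls at 12.3 and 8.24 FPKM. Squalene epoxidase, Sqle, a flux-controlling enzyme, changed by -0.24 (95% interval -0.48 to 0.01) and squalene synthase, Fdft1, by -0.17 (-0.39 to 0.05). Nsdhl, Sc5d and Sc4mol (now Msmo1), which remove methyl groups or insert a double bond, changed by -0.22, -0.20 and 0.11.

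Of the 5 genes of the SREBP system 3 fell with GAP-2/3, Srebf2, Srebf1 and Scap, and Srebf2 fell with GAP-2 too. Srebf2, which encodes the SREBP that chiefly drives sterol genes, was listed at 154 and 151 FPKM in GAP-scr, 110 and 102 in GAP-2, and 86.1 and 105 in GAP-2/3. Both arms lay below the controls and overlapped each other. Srebf2 fell by 0.52 ± 0.12 with GAP-2 (adjusted p = 0.014, limma) and by 0.68 ± 0.12 with GAP-2/3 (adjusted p = 0.0014). With GAP-2 the call was lost without GAP-2 A, at -0.58, and without GAP-2 B, at -0.47.

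Srebf1, whose products favour fatty acid genes, was at 47.8 and 46.6 FPKM in GAP-scr, 41.1 and 33.0 in GAP-2, and 28.8 and 34.7 in GAP-2/3. It lay below the controls in all 4 gapmer libraries, with a change of -0.56 ± 0.13 for GAP-2/3 (adjusted p = 0.00677) and -0.35 ± 0.13 for GAP-2 (adjusted p = 0.0949). Scap, the SREBP escort, was at 14.6 and 13.3 FPKM in GAP-scr, 12.3 and 9.50 in GAP-2, and 8.32 and 10.1 in GAP-2/3. It too lay below the controls in all 4 gapmer libraries, by -0.55 ± 0.14 for GAP-2/3 (adjusted p = 0.0113) and -0.33 ± 0.14 for GAP-2 (adjusted p = 0.134). The GAP-2/3 calls of both were lost without GAP-2/3 A, at -0.43 for Srebf1 and -0.42 for Scap. Insig1, the retention protein and itself an SREBP target, did not pass with GAP-2/3 at -0.15 (95% interval -0.53 to 0.23), with controls of 49.8 and 75.6 FPKM. Stard4, a cytosolic sterol carrier, did not pass either, at -0.10 (-0.40 to 0.19).

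Of the 9 fatty acid genes 4 fell with GAP-2/3, Acaca, Fasn, Scd1 and Acly, and none of these 4 passed with GAP-2. Acaca, the acetyl-CoA carboxylase that makes malonyl-CoA, stood at 19.9 and 18.7 FPKM in GAP-scr, 20.9 and 20.5 in GAP-2, and 11.5 and 14.5 in GAP-2/3. Only the GAP-2/3 libraries lay below the controls. The change was -0.54 ± 0.13 with GAP-2/3 (adjusted p = 0.0066) and 0.10 ± 0.13 with GAP-2 (adjusted p = 0.627). Fasn, fatty acid synthase, was at 63.4 and 64.4 FPKM in GAP-scr, 69.4 and 55.9 in GAP-2, and 38.6 and 50.8 in GAP-2/3. The GAP-2 libraries fell on either side of the controls, and the changes were -0.52 ± 0.14 with GAP-2/3 (adjusted p = 0.0149) and -0.04 ± 0.14 with GAP-2 (adjusted p = 0.882). Without GAP-2/3 A neither Acaca, at -0.39, nor Fasn, at -0.33, passed.

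Scd1, a desaturase that makes oleate, was listed at 334 and 272 FPKM in GAP-scr, 289 and 313 in GAP-2, and 217 and 243 in GAP-2/3. GAP-2 lay within the range of the controls and GAP-2/3 below it, and Scd1 fell by 0.39 ± 0.12 with GAP-2/3 (adjusted p = 0.027). Its close relative Scd2 stood at 831 and 732 FPKM in GAP-scr and 581 and 698 in GAP-2/3, a change of -0.29 ± 0.12 that did not pass (adjusted p = 0.0801). The sources used here do not give how reads were divided between these related genes. Acly, which makes cytosolic acetyl-CoA from citrate, fell by 0.32 ± 0.11 (adjusted p = 0.0339). The call for Scd1 was lost without GAP-scr A, at -0.24, GAP-2/3 A, at -0.31, or GAP-2/3 B, at -0.47. That for Acly was lost without GAP-scr A, at -0.31, either GAP-2 library, at -0.32, or GAP-2/3 A, at -0.23.

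The elongases lay above the controls in both arms. Elovl6, which extends palmitate to stearate, was at 6.60 and 5.54 FPKM in GAP-scr, 8.93 and 8.83 in GAP-2, and 7.21 and 7.72 in GAP-2/3. All 4 gapmer libraries lay above the controls. Elovl6 rose by 0.49 ± 0.12 with GAP-2 (adjusted p = 0.0234) and its change with GAP-2/3 was 0.26 ± 0.12 (adjusted p = 0.109). The GAP-2 call was lost without GAP-scr B, at 0.38, GAP-2 A, at 0.48, or GAP-2 B, at 0.49, and without either GAP-2/3 library at an unchanged 0.49. Elovl5, which extends polyunsaturated fatty acids, changed by 0.33 ± 0.12 and 0.31 ± 0.12 in GAP-2 and GAP-2/3 (adjusted p = 0.089 and 0.0633). The desaturases Fads1 and Fads2, which act on the same fatty acids, did not pass with GAP-2/3, at -0.23 and -0.10.

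**Figure D3:**
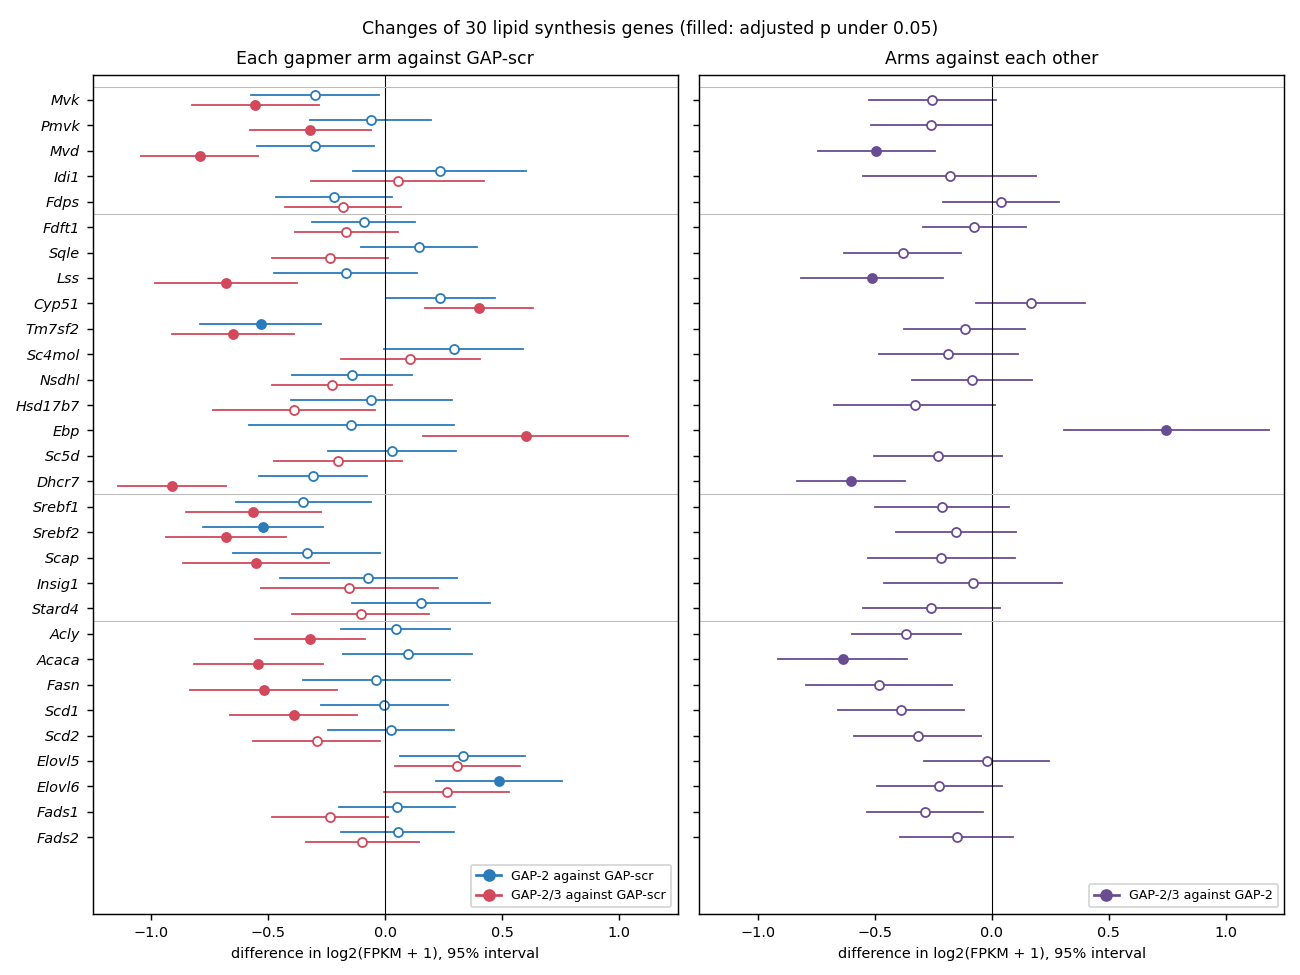
Differences in log2(FPKM + 1) for 30 lipid synthesis genes in pathway order, with 95% intervals, for each arm against GAP-scr (left) and for GAP-2/3 against GAP-2 (right). Filled points passed an adjusted p of 0.05; 13 genes are filled to the left of 0 for GAP-2/3 and 2 for GAP-2.

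Averaging the arms and setting that mean against GAP-scr tests their average, which a gene can pass through 1 arm alone. Here 8 of the 30 genes were lower and 3 higher, where 9.57% of all genes were called lower and 24.5% higher. The lower genes were Dhcr7 (-0.61 ± 0.09), Srebf2 (-0.60 ± 0.10), Tm7sf2 (-0.59 ± 0.10), Mvd (-0.55 ± 0.10), Srebf1 (-0.46 ± 0.11), Scap (-0.44 ± 0.12), Mvk (-0.43 ± 0.11) and Lss (-0.42 ± 0.12), with adjusted p-values (limma) from 0.000843 for Dhcr7 to 0.0196 for Lss. Of these only Srebf2 and Tm7sf2 were also called in GAP-2 against GAP-scr, where Lss was at -0.17. No fatty acid enzyme was among the lower genes. The higher genes were Elovl6 (0.37 ± 0.11), Elovl5 (0.32 ± 0.11) and Cyp51 (0.32 ± 0.09). Under median scaling 11 were lower and 1 higher (14.2% and 14.7% of all genes), and Elovl5, at 0.23, and Cyp51, at 0.22, did not pass. Dhcr7, Srebf2, Tm7sf2, Mvd and Mvk passed whichever library was left out, while 6 lower and 0 higher were called without GAP-2 B (5.73% and 14.4% of all genes) and 5 lower and 1 higher without GAP-2/3 A (4.96% and 14%). Lss did not pass at -0.24 with GAP-scr A left out, nor Elovl5 at 0.19 with GAP-scr B left out. Elovl6 did not pass with GAP-scr B (0.27), GAP-2 A (0.37), GAP-2 B (0.38) or GAP-2/3 B (0.35) left out, nor under quantile normalization at 0.27, which Elovl5 also failed at 0.24. Srebf1 did not pass without GAP-2/3 A, at -0.39. Lss, Scap and Cyp51 did not pass without GAP-2/3 A, at -0.37, -0.38 and 0.31, or without GAP-2 B, at -0.39, -0.36 and 0.28, and leaving out GAP-scr A ended the calls of Scap and Cyp51, at -0.38 and 0.27. Elovl5 also failed without GAP-2 A or GAP-2/3 B, at 0.35 each, and without GAP-2 B or GAP-2/3 A, at 0.29 each.

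The arms were then compared directly, which does not use the control means. GAP-2/3 was lower than GAP-2 for 4 of the 30 genes and higher for 1, where 3.65% of all genes were called lower and 6.5% higher. The lower genes were Acaca (-0.64 ± 0.13, adjusted p = 0.00941), Dhcr7 (-0.60 ± 0.11, adjusted p = 0.00473), Lss (-0.51 ± 0.14, adjusted p = 0.039) and Mvd (-0.49 ± 0.11, adjusted p = 0.0198), and the higher one was Ebp (0.75 ± 0.20, adjusted p = 0.0371; limma). Acly, Fasn and Sqle lay just past the threshold, at -0.37, -0.48 and -0.38 with adjusted p-values of 0.051, 0.0541 and 0.0553. The difference lay below 0 for 27 of the 30 genes and for all 9 of the fatty acid genes, against 41.2% of all genes, and the members' median was -0.23 against 0.05. For the fatty acid genes the median was -0.32, and the summed level of these 9 was 1420 and 1485 FPKM in GAP-2 against 1071 and 1252 in GAP-2/3. Scd2 was the largest part of that sum, at 766 and 822 FPKM in GAP-2 and 581 and 698 in GAP-2/3. Between the arms neither Scd2, at -0.32, nor Scd1, at -0.39, passed (adjusted p = 0.128 and 0.0693, limma).

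No gene of the SREBP system passed between the arms, where limma gave 0 of 5 at an unadjusted p under 0.05. Srebf2 differed by -0.16 (95% interval -0.41 to 0.10), Srebf1 by -0.21 (-0.50 to 0.07) and Scap by -0.22 (-0.53 to 0.10), intervals that leave room for a further fall with GAP-2/3. No overlap between the arms, with GAP-2/3 below, was seen for 20 of the 30 genes, against 23% of all genes, and with GAP-2/3 above for 2, against 38.5%. Mvk, Mvd, Fdft1, Tm7sf2 and Dhcr7 stepped down without overlap from GAP-scr to GAP-2 to GAP-2/3, which is 16.7% of the members and 5.75% of all genes tested. Cyp51 alone stepped up in this way, 3.33% of the members against 16.3% of all genes. Of the genes that stepped down only Mvd and Dhcr7 were called between the arms. Mvk was at -0.25 there, Tm7sf2 at -0.12 and Fdft1 at -0.08, and Fdft1 was called in no comparison. The calls between the arms rest on few libraries: none was made without GAP-2 A (1 higher and 7 lower at an unadjusted p under 0.05, limma; 1.37% of all genes called lower and 1.82% higher) or without GAP-2/3 A (0 and 7; 0.71% and 1.06%). There was 1 lower without GAP-2/3 B (1.08% and 1.13%), and 3 lower and 1 higher without GAP-2 B (1.75% and 3.1%). Leaving out a GAP-scr library, which changes only the estimate of the spread, gave 10 lower and 1 higher (6.5% and 12% of all genes without A, 6.57% and 12.1% without B). Among the named genes the differences that failed ran from -0.62 to -0.48 for Acaca, -0.62 to -0.59 for Dhcr7, -0.61 to -0.41 for Lss, -0.60 to -0.39 for Mvd and 0.53 to 0.85 for Ebp. Ebp did not pass under either scaling, at 0.70 by median and 0.71 by quantile normalization, and median scaling gave 7 lower and 0 higher (3.86% and 4.22% of all genes).

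**Figure D4:**
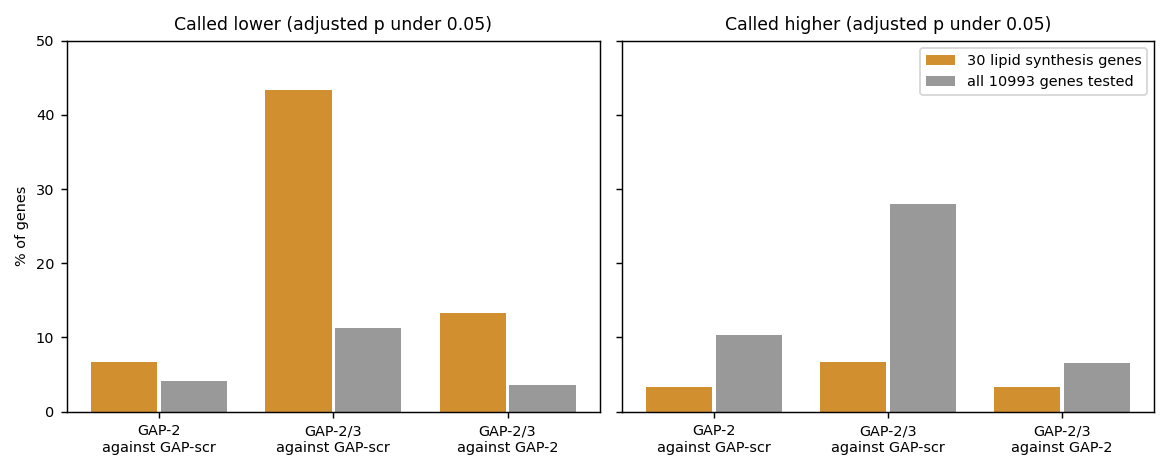
Share of the 30 lipid synthesis genes (orange) and of all 10993 genes tested (grey) called lower or higher in each comparison, in percent. With GAP-2/3 against GAP-scr 43.3% of the members were lower and 6.67% higher, against 11.3% and 28% of all genes.

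The GAP-2/3 libraries differed from each other in this pathway. Replicate A lay below B for 21 of the 30 genes (70%), where this held for 55.7% of all genes, and the members' median difference was -0.09 on the log2(FPKM + 1) scale against -0.03. In GAP-scr A lay above B for 21 of the 30, against 54.3% of all genes. Without GAP-2/3 A the count against GAP-scr became 4 lower and 0 higher, where 3.66% of all genes were lower and 10.3% higher. Dhcr7, Mvd, Srebf2 and Tm7sf2 are the 4 that passed, and they also passed without each of the other libraries; their changes ranged from -0.95 to -0.87, -0.90 to -0.69, -0.82 to -0.54 and -0.69 to -0.60. With GAP-2 no member was called when GAP-2 A was left out (3 higher and 4 lower at an unadjusted p under 0.05, limma; 1.3% of all genes called lower and 4.08% higher) or GAP-2 B was (1 and 3; 1.37% and 3.21%). Leaving out GAP-scr A gave 3 lower and 4 higher (6.77% and 17.1% of all genes). Without both libraries highest in Rn45s GAP-2/3 gave 11 lower and 2 higher (10.2% and 25.8% of all genes), and GAP-2 1 lower and 4 higher (3.59% and 10.2%). This setting leaves GAP-scr and GAP-2 with 1 library each, so the spread comes from the GAP-2/3 pair alone. GAP-2 against GAP-scr is then 1 library against 1, without replication. Calls lost under this setting, beside those of Tm7sf2 and Cyp51, were with GAP-2/3 Pmvk (-0.20), Ebp (0.26), Scd1 (-0.24) and Acly (-0.31), between the arms Mvd (-0.46) and Lss (-0.45), and for the mean of both arms Lss (-0.27) and Cyp51 (0.31).

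**Figure D5:**
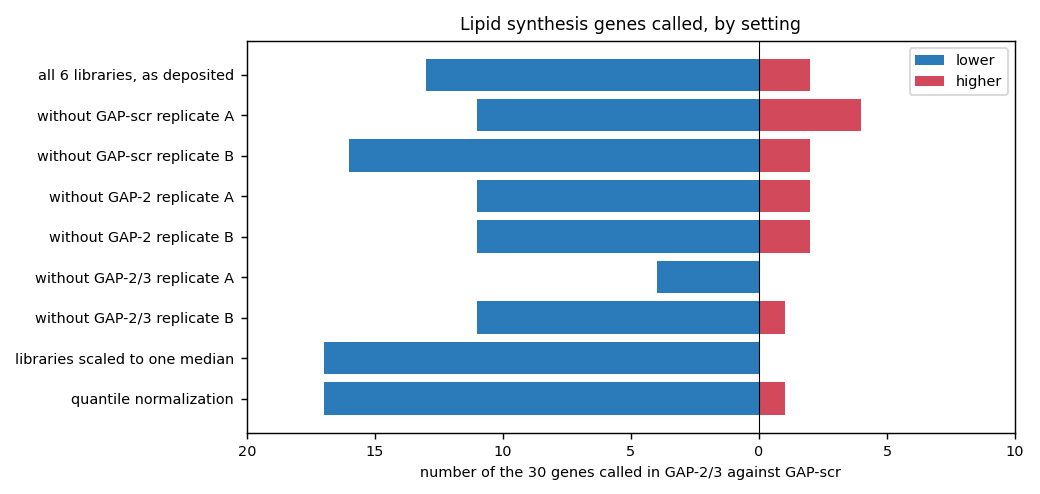
Number of the 30 lipid synthesis genes called lower (blue, to the left) or higher (red, to the right) in GAP-2/3 against GAP-scr, with all libraries, with each library left out, and under 2 other scalings. Leaving out GAP-2/3 A gave 4 lower, and the other settings shown gave 11 to 17.

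Neighbouring pathways were described by lists of genes not in the set. Their counts stand beside 28% of all genes called higher and 11.3% lower with GAP-2/3 (17.5% and 16.3% with one median, 16.6% and 17.8% with quantile normalization), and 10.4% and 4.18% with GAP-2. Fewer of all genes were called as well when GAP-scr B or any GAP-2 or GAP-2/3 library was left out. Counts from those settings are therefore not comparable with these shares. Without GAP-2/3 A the GAP-2/3 counts given below were 2 higher and 1 lower for the isoprenoid list, 2 and 3 for sterol uptake, 0 and 1 for fatty acid supply, 1 and 1 for triglycerides and phospholipids, and 4 and 0 for oxidation. Without GAP-2/3 B they were 4 and 1, 3 and 3, 0 and 1, 2 and 3, and 5 and 1. Among 17 tested genes of the isoprenoid branches and sterol electron donors GAP-2/3 raised 6 and lowered 2, shares of the list near those of all genes, or 4 and 3 under either scaling and 5 and 1 without GAP-scr B, GAP-2 A or GAP-2 B. GAP-2 raised 4, or 2 without GAP-2 A, GAP-2/3 B or GAP-scr B and 0 without GAP-2 B (4 at an unadjusted p under 0.05, limma). Cyb5 (now Cyb5a), the cytochrome that feeds electrons to desaturases and sterol oxidases, was at 18.1 and 16.1 FPKM in GAP-scr, 24.8 and 30.2 in GAP-2, and 41.0 and 37.6 in GAP-2/3, changes of 0.65 ± 0.12 for GAP-2 and 1.16 ± 0.12 for GAP-2/3. Zmpste24, a protease of prenylated proteins, rose by 0.86 ± 0.13 with GAP-2/3 and by 0.61 ± 0.13 with GAP-2, and Fnta, a subunit of protein prenyltransferases, by 0.59 ± 0.12 with GAP-2/3. Without GAP-2 B the GAP-2 changes of Cyb5, at 0.52, and Zmpste24, at 0.48, did not pass, and without GAP-2/3 A that of Fnta, at 0.48, did not. Of 10 genes of SREBP processing and sterol sensing, among them Mbtps2, a protease that releases SREBPs, limma called 0 in either arm, with 4 higher and 1 lower at an unadjusted p under 0.05 for GAP-2/3 and 3 higher for GAP-2. The direction depended on the setting: with GAP-2/3 quantile normalization gave 2 lower, and median scaling or leaving out both libraries highest in Rn45s 1 lower, while a replicate block or leaving out GAP-scr B gave 1 higher.

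Sterol uptake and transport genes were lower in 5 of 15 and higher in 3 with GAP-2/3, against 11.3% and 28% of all genes. Under either scaling 8 were lower and 2 higher, and without GAP-2 A or GAP-2 B 3 and 3. Lrp1, a receptor for lipoproteins and other ligands, was at 75.9 and 81.9 FPKM in GAP-scr, 60.2 and 49.8 in GAP-2, and 30.8 and 36.0 in GAP-2/3. It fell by 0.52 ± 0.13 with GAP-2 and by 1.22 ± 0.13 with GAP-2/3, and the GAP-2 change did not pass without GAP-2 B, at -0.39, or GAP-scr B, at -0.47. Scarb1, the receptor for high-density lipoprotein, fell by 0.67 ± 0.12 with GAP-2/3. Vldlr, a lipoprotein receptor, was at 1.83 and 2.19 FPKM in GAP-scr, 3.10 and 4.05 in GAP-2, and 0.856 and 0.832 in GAP-2/3, so it rose by 0.60 ± 0.14 with GAP-2 (0.45 and not passing without GAP-2 B, and 0.46 and not passing with quantile normalization) and fell by 0.71 ± 0.14 with GAP-2/3.

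In the list of fatty acid supply, elongation and activation 6 of 21 genes were higher and 2 lower with GAP-2/3, and 5 higher and 1 lower with GAP-2. The GAP-2/3 shares are near the 28% and 11.3% of all genes, and the counts were 1 and 5 with one median, 0 and 5 with quantile normalization and 3 and 1 without GAP-2 A or GAP-2 B. Those of GAP-2 were 1 and 0 without GAP-2 A or GAP-2 B (5 and 1, and 4 and 1, at an unadjusted p under 0.05, limma), and 3 and 1 without a GAP-2/3 library. Fads3, a relative of Fads1 and Fads2, fell by 0.89 ± 0.10 with GAP-2/3, with 159 and 170 FPKM in the controls and 86.4 and 90.4 in that arm. Elovl4, an elongase of very long chains, was at 0.650 and 0.621 FPKM in GAP-scr, 1.13 and 1.48 in GAP-2, and 1.22 and 1.19 in GAP-2/3. It reached a mean of 1 FPKM only through the gapmer libraries, so its call, counted among the higher genes, is not read as a result. The change of 0.43 ± 0.13 with GAP-2/3 did not pass under quantile normalization, at 0.21, without GAP-2/3 A, at 0.42, or without GAP-2/3 B, at 0.44. Acsl5, an acyl-CoA synthetase, and Ptplad1 (now Hacd3), a dehydratase of elongation, rose with GAP-2 by 0.61 ± 0.11 and 0.59 ± 0.11, calls lost without GAP-2 B, at 0.57, and without GAP-2 A, at 0.56. With GAP-2/3 Ptplad1 changed by 0.38 ± 0.11, which passed as deposited but not under either scaling (0.27 each) nor without GAP-scr B, at 0.30, GAP-2/3 A, at 0.37, or GAP-2/3 B, at 0.38. For triglyceride and phospholipid synthesis 4 of 25 were higher and 5 lower with GAP-2/3, against 28% and 11.3% of all genes. With one median they were 1 and 6, against 17.5% and 16.3%, without GAP-2 A or GAP-2 B 4 and 2, and without both libraries highest in Rn45s 1 and 4. The list was led by Cept1 (0.84 ± 0.12), which makes choline and ethanolamine phospholipids, and Pcyt2 (-0.61 ± 0.10), which supplies the latter. Lpin3, a phosphatidate phosphatase, fell by 0.43 ± 0.11 with GAP-2/3 and by 0.37 ± 0.11 with GAP-2; the first did not pass without GAP-2/3 A, at -0.40, and the second did not pass when any 1 library but GAP-scr A was left out, at -0.32 to -0.42, or without both libraries highest in Rn45s, at -0.45. Plin2, a coat protein of lipid droplets, was at 78.2 and 103 FPKM in GAP-scr, 144 and 140 in GAP-2, and 119 and 118 in GAP-2/3, and rose by 0.65 ± 0.13 with GAP-2, but was at 0.43 and did not pass without both libraries highest in Rn45s.

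Fatty acid oxidation, the opposing pathway, had more higher than lower genes, as all genes tested did. With GAP-2/3 7 of its 21 genes were higher and 1 lower, where 28% of all genes were called higher and 11.3% lower. With one median the counts were 4 and 1, where 17.5% and 16.3% of all genes were called. In both settings the higher share is near that of all genes. Acadm, the medium-chain dehydrogenase, was at 36.8 and 29.9 FPKM in GAP-scr, 39.6 and 37.6 in GAP-2, and 59.0 and 55.4 in GAP-2/3. It rose by 0.77 ± 0.12 with GAP-2/3, as did Decr1, a reductase for unsaturated acids, by 0.73 ± 0.13 and Etfdh, which passes electrons on to ubiquinone, by 0.66 ± 0.11. With GAP-2 2 genes were higher, Echs1 (0.43 ± 0.11) and Cpt1c (0.42 ± 0.12), a share near the 10.4% of all genes. Neither passed under either scaling. Of the 6 ways to leave out 1 library, Echs1 passed only without GAP-scr B, at 0.32 to 0.49 in the others, and Cpt1c only without GAP-scr A, at 0.33 to 0.51. Without both libraries highest in Rn45s they were at 0.37 and 0.36 and did not pass.

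The ChIRP-seq list, 798 peaks merged by the authors over their probe sets, was set against the gene spans. No peak overlapped any of the 30 genes by 1 bp or more, where 191 of 10961 matched tested genes (1.74%) held a peak. The nearest was a peak 5685 bp from Insig1, and the next lay 40573 bp from Acaca and 67766 bp from Srebf2. With spans extended by 10000 bp on each side Insig1 was the 1 member with a peak, against 2.53% of the tested genes.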

How the data were processed

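The authors deposited gene expression as a table of FPKM values with a column for each RNA-seq library, and ChIRP-seq peaks as a merged list whose score per peak was used only to rank them. Tools named in the submitters' processing notes, with neither roles nor versions, include TopHat2, Cufflinks, Cuffdiff, Bowtie2 and MACS, and the build named is mm9. Because FPKM is not a count, no count model or counting interval applies. Genes averaging at least 1 FPKM were transformed to log2(FPKM + 1). The 3 groups entered a single limma 3.58.1 fit (R 4.3.3) with a trend on intensity and without covariates, and p-values were adjusted by Benjamini-Hochberg across 10993 genes. The design text speaks of biological replicates but names no separate cultures, so p-values reflect only how these libraries vary, which may be technical.

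The members, the other lists and the tests were chosen with earlier results of these data known. Each called member is named, the 14 with the largest change have their value in every library, and the other lists contribute up to 3 genes with the smallest p for GAP-2/3 and 2 for GAP-2. Promoter sequences were to be those with a sterol element or E-box, which none held, so the 6 shown were picked afterwards, from RefSeq (GRCm38.p6). Peak positions were matched to RefSeq genes of GRCm38.p6, since a peak on chromosome X runs past where mm9 ends, and all distances depend on that choice. The limma step was tested on simulated data. Alternatives changed the pseudocount (0.1), the filter (none, or a mean of 5 FPKM), the scaling, the trend, the block, the libraries entered and the adjusted p (0.1). A group left with 1 library is assumed to vary like the others.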

Additional observations from a re-analysis of the deposited data

Results flagged for a closer look

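For 5 lipid synthesis genes the direct test called a difference between the arms, and each of these calls was lost with at least 1 library left out. Ebp also did not pass under either scaling. GAP-2/3 against GAP-2 gave -0.64 for Acaca, -0.60 for Dhcr7, -0.51 for Lss, -0.49 for Mvd and 0.75 for Ebp on the log2(FPKM + 1) scale (limma, adjusted p under 0.05 over all genes). Ebp and Acaca have changes against GAP-scr of opposite sign in the arms, -0.14 with GAP-2 and 0.60 with GAP-2/3 for Ebp and 0.10 and -0.54 for Acaca, of which only those with GAP-2/3 passed.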

How the results depend on the processing

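None of the 34 calls of a member in a comparison changed direction under the alternatives. All 34 passed without a filter and with a mean of 5 FPKM, 33 with the smaller pseudocount of 0.1, without a trend and with a replicate block, 30 with quantile normalization and 29 with one median. Without GAP-2/3 replicate A 12 passed. The number called in GAP-2 against GAP-scr, 3 as reported, was 5 with one median, 5 without both libraries highest in Rn45s, 7 at an adjusted p of 0.1 and 0 to 7 with a library left out. In GAP-2/3 against GAP-scr, 15 as reported, it was 4 to 18 with a library left out. Between the arms, 5 as reported, it was 9 with the replicate block (4.84% of all genes lower and 8.52% higher), 11 with only the libraries compared (6.52% and 12.2%), 9 at an adjusted p of 0.1 and 0 to 11 with a library left out. For the mean of both arms, 11 as reported, it was 6 to 12. The cause was not tested. The replicate letters share no stated source: deviations of same-letter libraries correlated at 0.36, -0.13 and -0.18, so the block is not read as a pairing. Members with a peak went from 0 to 1 with extended spans, and limiting promoters to the bases before the start gave 18 members with an NF-Y box. Depth is unknown, so small changes in weakly expressed members may be below what these libraries resolve.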
